A study of Homo sapiens with 12 samples.

Results

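The nuclear genes that encode subunits of the mitochondrial respiratory chain and of ATP synthase were followed in 3 established human cancer cell lines by RNA sequencing. The genes were taken by symbol, and 81 of the 57500 genes in the count table matched. They comprised 37 genes of complex I, 4 of complex II, 9 of complex III, 15 of complex IV and 16 of complex V. NDUFA4, which carries a complex I name and is now placed in complex IV, was counted with complex IV. The 12 libraries fell into 4 groups of 3 biological replicates. SW480 is a colorectal cancer line from a primary tumour and SW620 is a line from a metastasis of the same patient, both untreated and grown in DMEM. PEO4, an ovarian cancer line, was kept in RPMI 1640, either as control medium or with recombinant TGF-β at 10 ng/mL for 6 days. All media held fetal bovine serum, penicillin and streptomycin. Each tissue was thus represented by the line or pair of lines named here, and the series was set up around how the kinase inhibitors cediranib and NU-7441 act on primary and metastatic colorectal cells. No library with either inhibitor was analysed here.

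The respiratory chain passes electrons from NADH (complex I) and succinate (complex II) through complex III to oxygen at complex IV, and the proton gradient built on the way drives ATP synthesis by complex V. Complex II is encoded wholly in the nucleus, while the other complexes join nuclear subunits to a few that are encoded by mitochondrial DNA. Several complex IV subunits exist as pairs of isoforms, one broadly expressed and the other largely restricted to a tissue such as lung, heart and skeletal muscle or testis.

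Library totals ranged from 14531420 to 22028956 gene-assigned counts, and the subunits together took 0.306% to 0.481% of them. Among the SW libraries the subunits were low in replicate 2 of both lines and high in replicate 3 of both. The median subunit deviated from its group mean by -0.32 in log2(CPM + 1) in SW480 replicate 2 and by -0.47 in SW620 replicate 2. The same value was 0.26 in SW480 replicate 3 and 0.51 in SW620 replicate 3, while the 6 PEO4 libraries stayed between -0.12 and 0.15. Transcripts of mitochondrial DNA took 14.2% and 12.8% of counts in replicate 2 of SW480 and SW620, against 7.54% to 11.6% in the other SW libraries. Genes abundant in PEO4 and otherwise near 0 counts in the SW lines stood at 1.01% of their PEO4 level in SW620 replicate 3 (18 genes). The colon factor CDX2 had 292 to 494 counts in each SW library and at most 3 in any PEO4 library. PAX8, a factor of Müllerian epithelium, was at 555 ± 19.1 CPM in PEO4 control (SD, n = 3) and at 44.3 ± 13.8 CPM in SW480. CPM is counts per 1000000 counts of a TMM-scaled library. Of the 7 ovarian markers read, WT1, MSLN, MUC16 and EMX2 were also higher in PEO4 control than in both SW lines. SOX17 was lower, at 1.60 CPM in PEO4 control against 2.57 in SW480 and 3.02 in SW620. FOLR1 was at 12.6 CPM in PEO4 control, 3.44 in SW480 and 16.4 in SW620. Of the 7 colorectal markers read, VIL1 was at 26.1 CPM in SW480 and 207 in SW620, and LGR5 at 1.16 and 92.9. CDH17 was at 0.548 and 3.29 CPM, and CEACAM5 at 0.0335 and 4.58. CDX1 and KRT20 had means of at most 0.477 CPM in both SW lines. The 3 markers of heart or skeletal muscle summed to at most 0.642 CPM. Those of leukocytes, fibroblasts and endothelium summed to at most 6.96, 14.2 and 5.33 CPM, each in an SW620 library. The part of these differences between libraries in the results was not tested.

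The subunits were expressed at widely different levels, and the leading subunit was the same in the 4 groups for complexes II and V but not for complexes I, III and IV. Levels between genes were compared as CPM per kb of exon. In complex V, ATP5F1B, the catalytic β subunit, led every group, from 127 CPM per kb in SW480 to 176 in SW620. In complex IV, COX8A led the SW lines with 116 CPM per kb in SW480 and 103 in SW620. COX6A1 led PEO4, with 141 CPM per kb in control cells and 156 with TGF-β. The lowest subunit of complex IV above the detection limit in each group was COX6B2. In complex I, the accessory subunit NDUFB11 led the SW lines with 61.9 CPM per kb in SW480 and 70.9 in SW620. NDUFB9, another accessory subunit, led PEO4 with 78.9 CPM per kb in control cells and 117 with TGF-β. NDUFB8 was the lowest complex I subunit in each group, at 0.530 CPM per kb in SW480 and between 1.27 and 1.43 in the others. That level is uncertain, as other genes overlap 48.5% of its exon bases and it has named pseudogenes. In complex III, the core protein UQCRC1 was highest in SW480 at 42.2 CPM per kb, the hinge protein UQCRH in SW620 at 41.6, and cytochrome c1 (CYC1) in PEO4 control at 102. In complex II, the membrane anchor SDHD was highest and its partner SDHC lowest in each group, between 13.8 and 16.6 CPM per kb for SDHD. Per kb of the longest annotated transcript, some of these orders changed. COX6A1 then led complex IV in every group, ATP5MF led complex V in SW480, SDHA led complex II in SW620, UQCRH led complex III in PEO4, and NDUFA9 was the lowest of complex I in PEO4 control (3.31 CPM per kb).

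**Figure D1:**
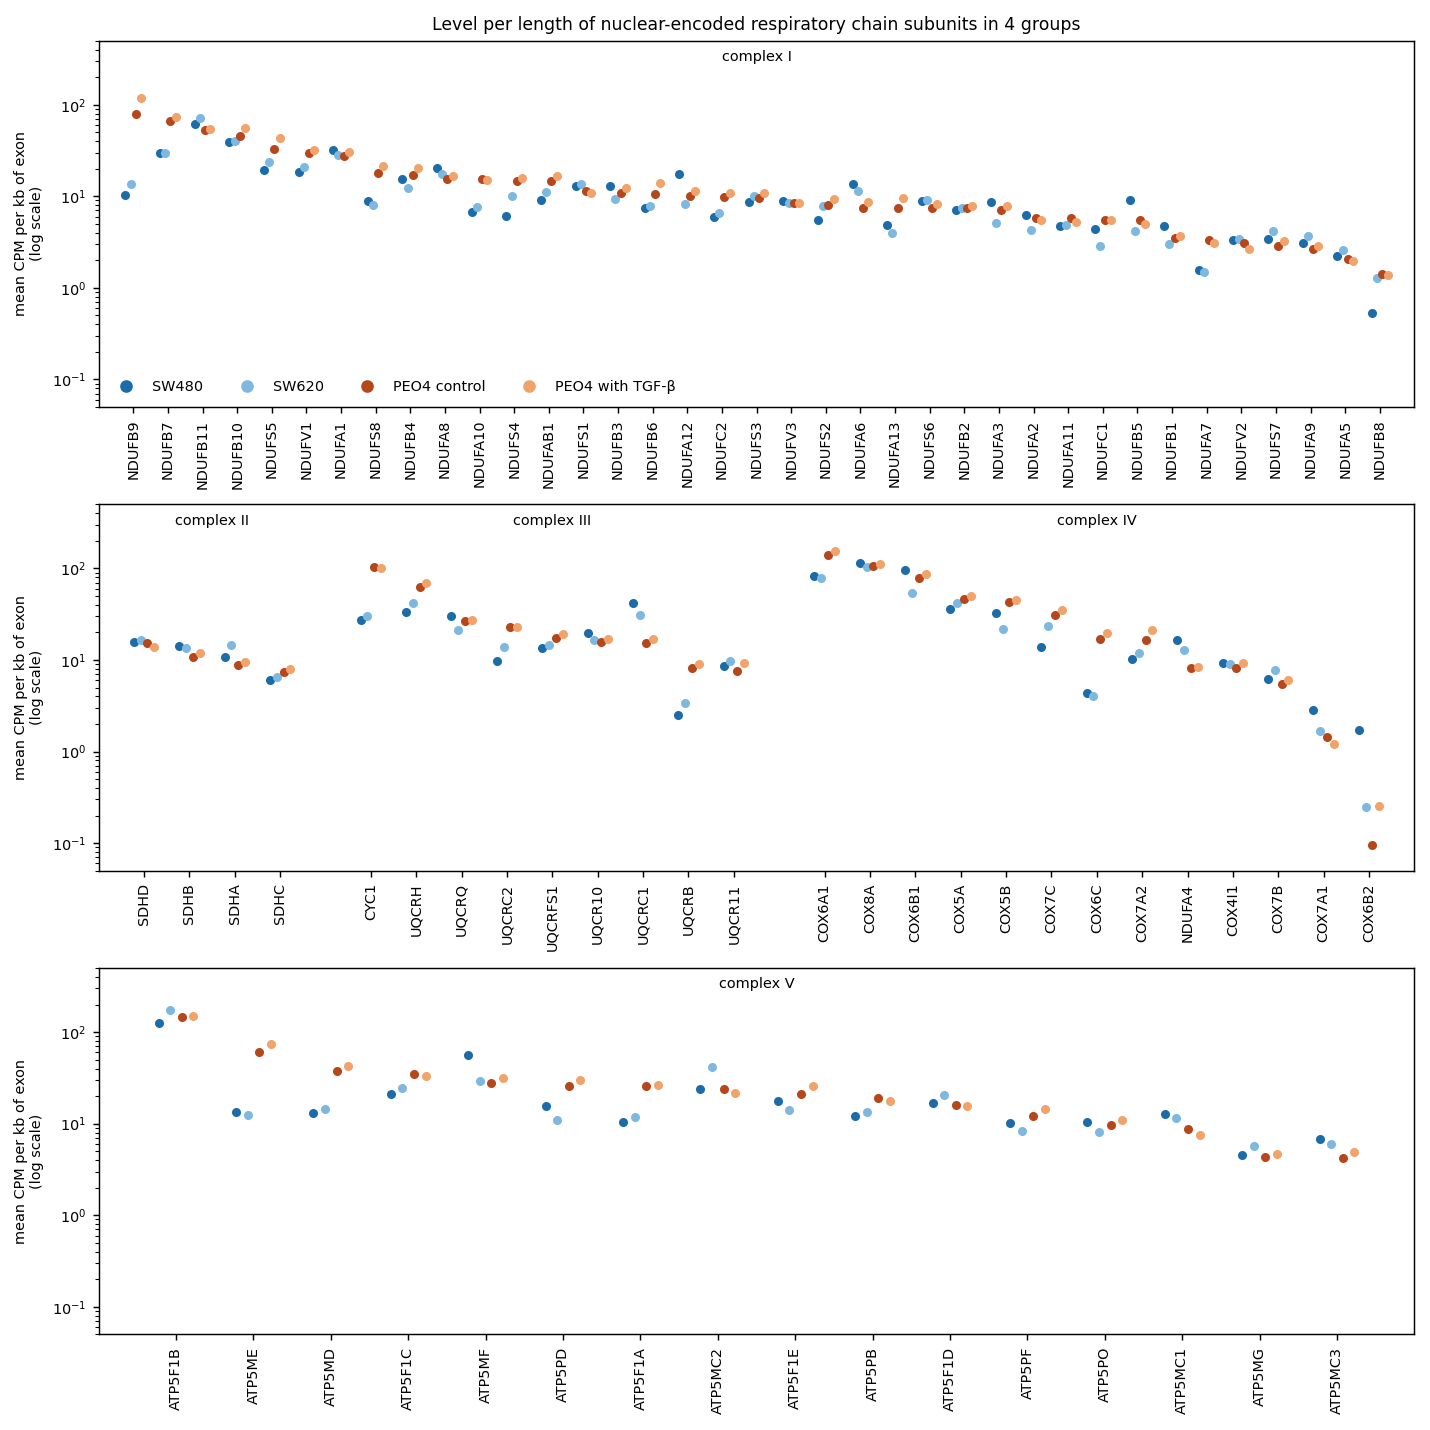
Mean CPM per kb of exon (log scale) of each subunit in the 4 groups, by complex and ordered by the level in PEO4 control; each point is a mean of 3 libraries, and COX4I2 and COX6A2 are left out as too low. NDUFB9, CYC1, ATP5ME and COX6C stand apart between PEO4 and the SW lines, and COX6B2 is highest in SW480.

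Summed over a complex, PEO4 libraries were higher than most SW libraries for complexes I, III, IV and V. Complex I summed to 1124 ± 187 CPM in SW480, 1133 ± 315 in SW620, 1577 ± 67.4 in PEO4 control and 1818 ± 149 in PEO4 with TGF-β (SD, n = 3). The PEO4 libraries lay above every SW library for this sum, the lowest PEO4 value being 1503 CPM and the highest SW value 1474 CPM. Without NDUFB9 the sums overlapped, with 820 to 1388 CPM in the SW libraries and 1193 to 1434 CPM in the PEO4 libraries. Complex III ranged from 311 to 603 CPM in the SW libraries and from 641 to 766 CPM in the PEO4 libraries. Without CYC1 it overlapped as well, at 273 to 516 CPM against 442 to 557 CPM. Complex IV was at 548 ± 147 CPM in SW480, 496 ± 230 in SW620, 677 ± 14.8 in PEO4 control and 748 ± 97.7 with TGF-β. Complex II showed no such order, with 255 ± 45.6 CPM in SW480, 294 ± 91.1 in SW620, 249 ± 20.7 in PEO4 control and 261 ± 14.1 with TGF-β. Complex V also overlapped between all groups and spanned 744 to 1715 CPM within SW620 alone. As a share of all counts, without scaling, complex I made up 0.121% ± 0.0121 of SW480, 0.126% ± 0.0176 of SW620 and 0.145% ± 0.00862 of PEO4 control. On that scale the highest SW library passed the lowest PEO4 library, at 0.144% against 0.138% for complex I and 0.0590% against 0.0583% for complex III. Complex V made up 0.130% ± 0.0364 of SW620 and 0.125% ± 0.00687 of PEO4 control. In bulk RNA, fewer cells of a type and less RNA per cell cannot be told apart.

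**Figure D2:**
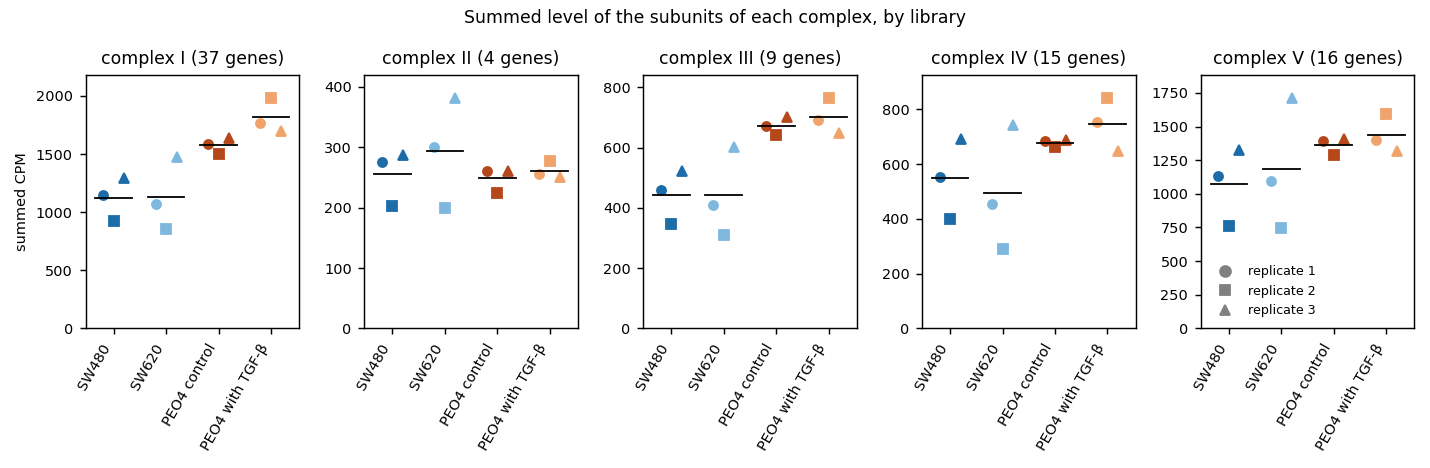
Summed CPM of the subunits of each complex in each of the 12 libraries; symbols give the replicate number and lines the group mean, and each axis starts at 0. Replicate 2 of both SW lines is low and replicate 3 high in all 5 complexes.

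The tissue-restricted isoforms of complex IV were low or undetected, with COX6B2 in SW480 as the exception. COX4I2, the lung form of subunit 4, had 0 to 6 counts per library, while its broad partner COX4I1 stood at 26.8 to 59.4 CPM. COX6A2, the heart and muscle form of subunit 6A, had 1 count in 2 libraries and 0 in the rest, where 0 allows up to 3 counts, or 0.139 to 0.175 CPM (counting error only). COX6A1 ranged from 54.9 to 234 CPM. COX7A1, the other heart and muscle form, ranged from 0.606 to 3.14 CPM against 11.9 to 48.0 CPM for COX7A2. COX6B2, the testis form of subunit 6B, stood at 5.48, 9.40 and 4.99 CPM in the SW480 libraries, above the 0.487, 1.35 and 0.975 CPM of the SW620 libraries. In PEO4 it was at 0.286, 0.288 and 0.517 CPM in control cells and at 1.05, 0.661 and 1.18 CPM with TGF-β. The SW480 libraries were thus apart from all others. COX6B1, the broad form, was at 78.3, 76.8 and 112 CPM in the SW480 libraries, with 45.3, 33.4 and 71.1 CPM in the SW620 libraries. In the TGF-β comparison the COX6B2 log2 fold change was 1.35 ± 0.45 (SE) with an adjusted p of 0.175 by edgeR's quasi-likelihood test, on 5 to 24 counts per library.

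The first comparison asked how the metastatic line differed from the primary line. In the fit on group alone, SW620 differed from SW480 in few subunits, although the 2 lines differed in much of the transcriptome. With edgeR's quasi-likelihood test and Benjamini-Hochberg adjustment, 5 of the 79 subunits tested passed an adjusted p of 0.05, 1 higher and 4 lower in SW620. Of all 20941 genes tested, 30.5% passed (13.5% higher and 17% lower). In this fit the share among the subunits, 6.33%, was thus lower than in the table as a whole. The shares lay nearer to each other with the replicate number as a block, as given below. Libraries of the lines did not overlap for 10 of the 79, 3 higher and 7 lower, against 43.9% of all genes (19.9% higher, 24% lower). The median log2 fold change of the subunits was 0.07, beside 0.03 for all genes. The median standard error was 0.29 for the subunits and 0.29 for all genes. The 95% interval lay within a 2-fold change in either direction for 49 of the 79, against 33.6% of all genes. For the rest, the 5 called subunits among them, the interval reached past 2-fold.

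COX6B2 fell most, by 2.80 ± 0.44 on the log2 scale (SE; adjusted p = 0.00143, edgeR), or 6.96-fold lower in SW620. It stayed past the threshold in each of the 17 alternative fits. Exons of COX6B2 overlap AC020922.1 on the same strand over 30.9% of their bases. That gene was lower in SW620 too, at 0.593 CPM in SW480, 0.0821 in SW620 and 0 in PEO4 control. The part of the overlap in the COX6B2 change was not tested. The 3 other subunits that fell are accessory subunits of complex I. NDUFB5 was at 62.4, 40.5 and 56.3 CPM in the SW480 libraries, against 27.5, 16.7 and 30.1 CPM in those of SW620, and fell by 1.08 ± 0.25 (adjusted p = 0.0102, edgeR). NDUFA12 was at 34.8, 22.7 and 38.1 CPM in the SW480 libraries, against 15.4, 10.7 and 18.6 CPM in those of SW620. It fell by 1.08 ± 0.26 (adjusted p = 0.0117, edgeR). NDUFA3 was at 20.1, 21.4 and 22.7 CPM in the SW480 libraries, against 9.29, 12.8 and 15.9 CPM in those of SW620, and fell by 0.74 ± 0.21 (adjusted p = 0.0278, edgeR). No library of these 3 genes overlapped between the lines, and the SW620 libraries were the lower ones.

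NDUFB8 was the 1 subunit that rose. It was at 1.16, 0.993 and 1.03 CPM in the SW480 libraries, against 2.29, 2.69 and 2.65 CPM in those of SW620, a log2 fold change of 1.28 ± 0.35 (adjusted p = 0.0212, edgeR). These values rest on 17 to 57 counts per library. HIF1AN, on the opposite strand, and AL133352.1 together overlap 48.5% of NDUFB8's exon bases, and 23.3% of the counts of the gene and its named pseudogenes lay in the pseudogenes. Its level is therefore uncertain. No subunit of complexes II, III or V passed the threshold in edgeR, where 0, 1 and 2 of them had an unadjusted p under 0.05. DESeq2 called 0, 0 and 1, and limma-voom called none. COX6B1 had a log2 fold change of -0.82 ± 0.28 with an adjusted p of 0.0537 (edgeR). In the authors' deposited table, 9 subunits had an adjusted p under 0.05, 2 higher and 7 lower, beside 34.3% of all its genes, and they included the 5 above. The other 4 in the authors' deposited table, chosen here after their values were seen, were COX6B1, ATP5MF and NDUFB1 (lower) and ATP5MC2 (higher).

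The count moved with the model and with single libraries. With the replicate number as a block it was 27 of the 79 (10 higher, 17 lower), beside 10667 of the 20941 genes tested. With the block and the GC correction it was 37 (24 higher, 13 lower), beside 11254 of all genes. With the block the share among the subunits was still lower than among all genes, but nearer to it than with group alone. Calls among all genes moved as well, from 6385 in the main fit. Without SW620 replicate 2 it was 14 (10 higher, 4 lower), beside 7288 of all genes. Without SW620 replicate 3 it was 11 (1 higher, 10 lower), beside 7419. Without SW480 replicate 1 it was 1, beside 4253 of all genes. Without SW480 replicate 3 or SW620 replicate 1 it was 2, beside 4463 and 4391. Without SW480 replicate 2 it was 4, beside 5927. With library totals in place of TMM factors it was 5 higher and 6 lower, beside 6925 of all genes. With upper quartile factors it was 4 higher and 6 lower, beside 6895. With 1 library left out at a time, NDUFB5 passed in 5 of 6 fits, NDUFA12 in 3, and NDUFA3 and NDUFB8 in 2 each. Corrected for GC content, NDUFA12 (log2 fold change -0.93, adjusted p = 0.056) and NDUFA3 (-0.57, adjusted p = 0.0672) missed the threshold in edgeR.

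**Figure D3:**
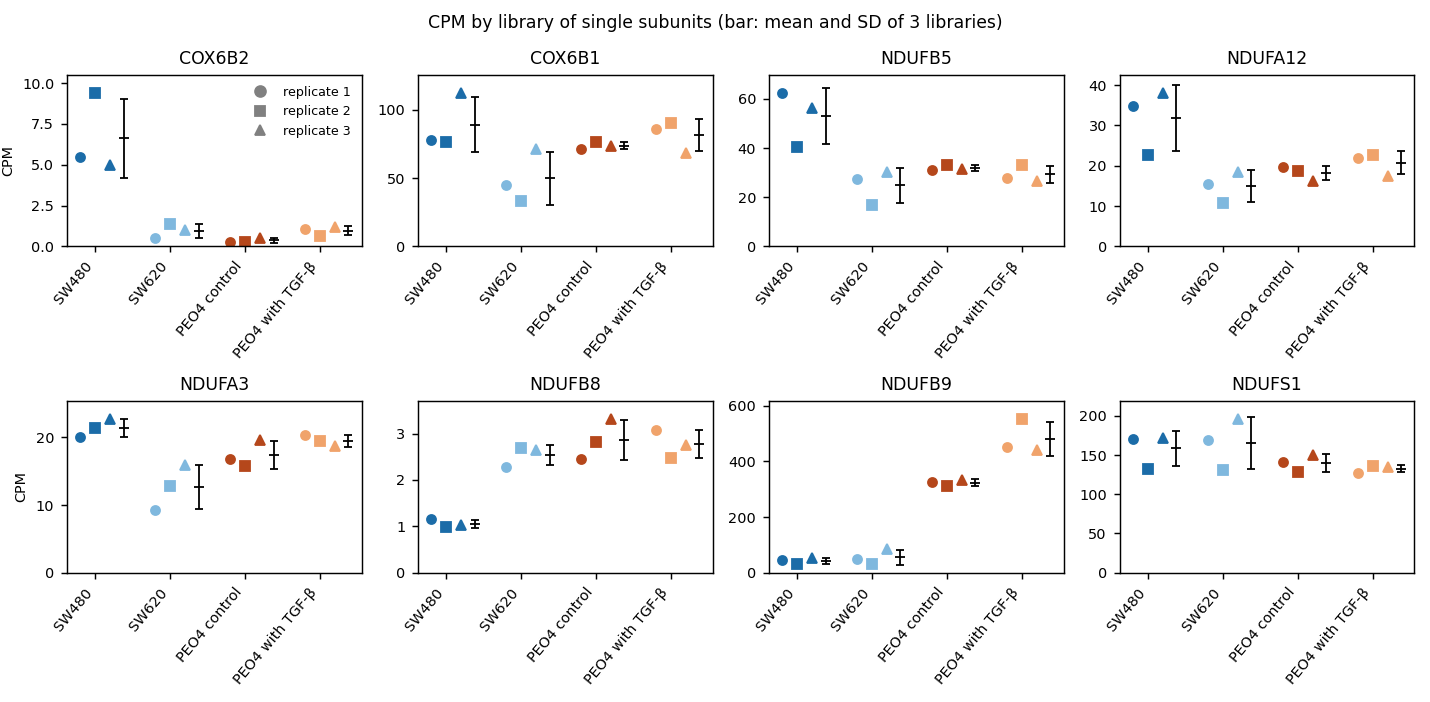
CPM by library of 8 subunits in the 4 groups, with the mean and SD of 3 libraries beside each group; every axis is linear from 0. NDUFB5, NDUFA12, NDUFA3 and COX6B2 are lower in every SW620 library than in every SW480 library, NDUFB8 is higher, NDUFB9 is high in PEO4, and NDUFS1, a core complex I subunit shown for scale, overlaps between the lines.

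Promoters are shown for NDUFA3 and NDUFA12, which fell in SW620 and share a motif of the respiratory chain regulator NRF1, and for the isoform pair COX6B1 and COX6B2. NDUFB5 is not among the sequences found. RefSeq sequences (GRCh38.p14) were found for 66 of the 81 subunits, in 78 windows of 300 bases, from 250 before to 50 after a start. The NRF1 motif (GCGCA, then any base, then GCGC), searched on both strands as were the others, was in 19.2% of these windows and in 5.78% of all 35116 windows. An ETS motif, CCGGAAG, the kind bound by NRF2/GABP, was in 28.2% of subunit windows and 10.3% of all, and a YY1 motif, AAGATGGCG, in 12.8% and 1.75%. A window could hold more than 1 motif, and 38 of the 66 subunits had at least 1. The NRF1 motif was in 15 of the 66, and those other than NDUFA3 and NDUFA12 were not called lower in SW620. NDUFB8, the subunit that rose, had a YY1 match and is not printed. Whether a motif had a part in any change was not tested. The stretches below run 5′ to 3′ up to the first base annotated as transcribed, with NRF1 matches in capitals. They come from chr19:54102605-54102727 (plus strand) for NDUFA3, chr12:95003771-95003947 (minus strand) for NDUFA12, chr19:35648073-35648222 (plus strand) for COX6B1 and chr19:55354815-55354969 (minus strand) for COX6B2.
NDUFA3: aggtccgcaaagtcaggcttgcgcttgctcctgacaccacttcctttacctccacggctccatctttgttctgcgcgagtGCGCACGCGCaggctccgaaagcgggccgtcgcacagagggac
NDUFA12: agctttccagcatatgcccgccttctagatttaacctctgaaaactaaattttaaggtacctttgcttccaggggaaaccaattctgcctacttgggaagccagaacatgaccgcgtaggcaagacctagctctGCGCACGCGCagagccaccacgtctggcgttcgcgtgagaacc
COX6B1: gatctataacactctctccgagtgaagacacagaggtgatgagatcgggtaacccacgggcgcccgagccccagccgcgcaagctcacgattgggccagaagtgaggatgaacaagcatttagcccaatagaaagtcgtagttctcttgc
COX6B2: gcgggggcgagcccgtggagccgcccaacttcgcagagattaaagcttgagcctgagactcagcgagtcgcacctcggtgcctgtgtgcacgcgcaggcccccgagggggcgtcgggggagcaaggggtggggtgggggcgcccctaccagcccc
The matches began 170 bases before the RefSeq start in NDUFA3 and 116 bases before it in NDUFA12. NDUFA3 had a further NRF1 match 73 bases before the start, and COX6B1 an ETS match 12 bases before it, both past the stretches printed. COX6B2 held none of the 3 motifs in its window, which says only that these letters were not there.

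The second comparison asked what TGF-β did to PEO4 cells. Among the subunits, 1 of 79 passed the threshold with edgeR, beside 2.26% of the 19064 genes tested (1.27% higher, 0.991% lower). That gene was NDUFB9, an accessory subunit of the complex I membrane arm. It was at 327, 310 and 335 CPM in control cells and at 451, 552 and 442 CPM with TGF-β, so each treated library was above each control library. The log2 fold change was 0.54 ± 0.09 (SE; adjusted p = 0.0219, edgeR), or 1.45-fold higher. The authors' deposited table also had NDUFB9 as its 1 subunit with an adjusted p under 0.05, beside 5.66% of all its genes. NDUFB9 overlaps TATDN1 and MTSS1 on the opposite strand over 21.0% of its exon bases, and their log2 fold changes were -0.09 and -0.24.

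The other subunits shifted little. The subunits' median log2 fold change was 0.10, beside -0.02 for all genes. The fold change was above 0 for 58 of the 79, a share not computed for all genes. Treated and control libraries did not overlap for 15 subunits that were higher and for 1 that was lower (SDHD), against 11.6% and 8.48% of all genes (20% in either direction). The higher ones included 8 of complex I, 3 of complex IV and 4 of complex V. SDHD was at 45.4, 41.2 and 44.7 CPM in control cells and 38.6, 39.9 and 38.6 CPM with TGF-β, a log2 fold change of -0.20 ± 0.08 with an adjusted p of 0.245 (edgeR). The median standard error was 0.11 for the subunits and 0.17 for all genes, so narrower intervals go with it. The 95% interval lay within a 2-fold change for 77 of the 79, against 70.4% of all genes. It lay within 0.5 on the log2 scale for 63, a share not computed for all genes. In this comparison a 2-fold change was therefore outside the interval of nearly every subunit. The intervals of COX6B2 and COX7A1 reached past 2-fold. The NDUFB9 call was lost without TGF-β replicate 1 or 2 or control replicate 2 or 3 (adjusted p from 0.0509 to 0.122, edgeR) and with all 12 libraries in 1 model (0.633), while its log2 fold change stayed between 0.46 and 0.59.

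**Figure D4:**
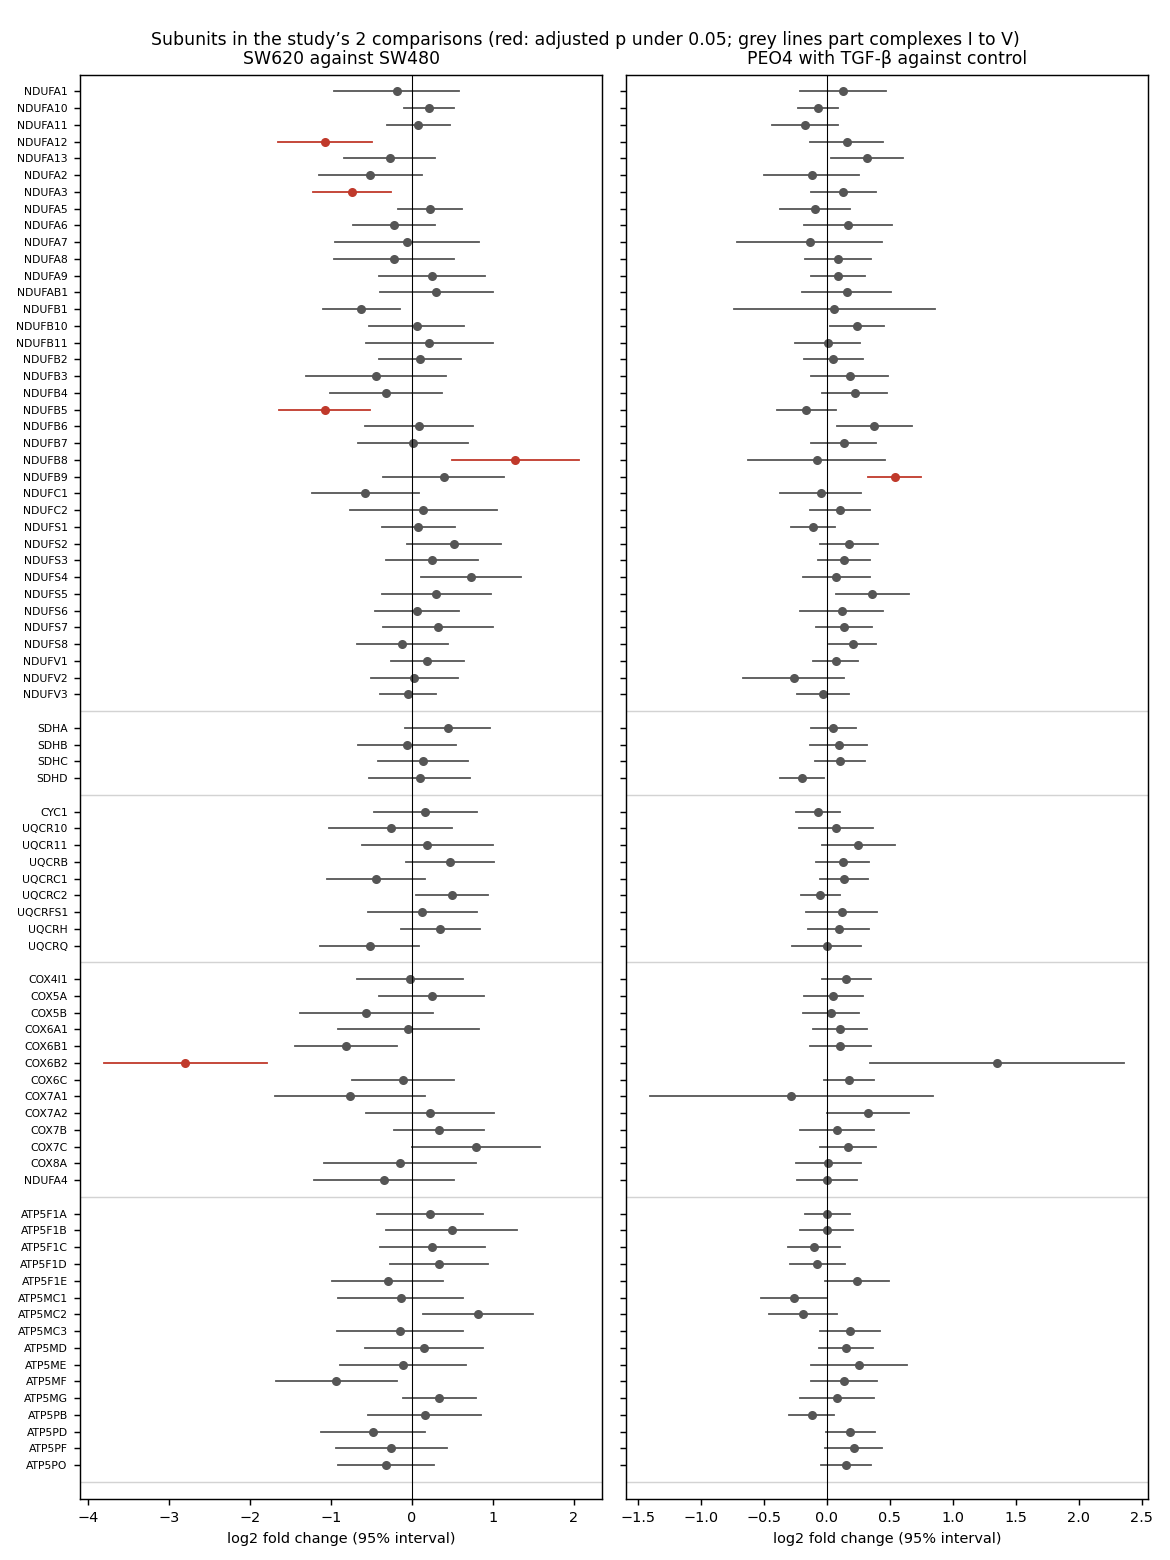
Log2 fold change with its 95% interval of the 79 subunits tested, for SW620 against SW480 (left) and PEO4 with TGF-β against control (right), ordered by complex and symbol; red marks an adjusted p under 0.05, and the 2 axes have different ranges. The intervals are narrower on the right, where NDUFB9 alone is red; on the left 5 subunits are red.

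The third comparison set PEO4 control against the mean of the SW lines, and used libraries that also entered the other comparisons. Line, tissue of origin and medium cannot be told apart in it. Of the 79 subunits tested, 29 (36.7%) passed the threshold with edgeR, beside 58% of the 22936 genes tested (28.9% higher, 29.1% lower). Among the subunits 24 were higher in PEO4 and 5 were lower, and libraries did not overlap for 18 and 2 of the 79, against 22.8% and 21.2% of all genes (44% in either direction). The 95% interval lay within a 2-fold change for 44 of the 79, against 28% of all genes. The split of the calls rests on the scaling. With library totals in place of TMM factors, 18 were higher and 24 lower, beside 13806 of all genes in either direction. That scaling moved the median log2 fold change of all genes from -0.08 to -0.36, and that of the subunits from 0.16 to -0.10, so the subunits' median was above that of all genes under both. By complex, library totals gave 7 higher and 11 lower in complex I, 4 and 1 in complex III, 3 and 4 in complex IV, and 4 and 6 in complex V.

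In complex I, 11 subunits were higher in PEO4 and 1 was lower. NDUFB9 had the highest fold change of any subunit, 2.74 ± 0.24 on the log2 scale (SE; adjusted p = 1.12e-06, edgeR), or 6.68-fold. The SW480 libraries held 44.2, 32.3 and 52.0 CPM, those of SW620 50.4, 31.5 and 85.1 CPM, and no PEO4 library was below 310 CPM. NDUFB7, NDUFA7 and the core iron-sulfur subunit NDUFS8 were 2.23-fold, 2.18-fold and 2.14-fold higher. NDUFA7 shares 33.5% of its exon bases with other genes, among them RPS28 on the opposite strand, whose own log2 fold change was 1.30, and its call was lost with library totals (log2 fold change 0.84, adjusted p = 0.0554, edgeR). NDUFA6, the accessory subunit that was lower, was at 13.2 to 22.2 CPM in the SW lines and at 11.3, 11.6 and 8.85 CPM in PEO4 control (log2 fold change -0.73 ± 0.19). In complex II, SDHA, the flavoprotein that oxidises succinate, was lower by the edgeR test (log2 fold change -0.48 ± 0.18, adjusted p = 0.0401). Among other alternatives, that call was lost with DESeq2 (log2 fold change -0.45, adjusted p = 0.0762), with RLE factors (-0.46, 0.0577) and against SW480 alone (-0.27, 0.3003). SDHA pseudogenes held 23.3% of the counts of the gene and its copies.

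Complex III was split. CYC1, cytochrome c1, was at 194, 199 and 213 CPM in PEO4 control and between 38.1 and 86.7 CPM in the SW libraries (log2 fold change 1.83 ± 0.21). UQCRB, which helps to anchor the complex, was at 75.9, 79.2 and 81.7 CPM against 21.1 to 44.6 CPM (1.49 ± 0.18). UQCRC2, a core protein named after its values were seen, and UQCRH were also higher, by 0.99 and 0.78. Its partner core protein UQCRC1 went the other way, with 48.7, 45.7 and 53.1 CPM in PEO4 control and 70.2 to 159 CPM in the SW libraries (-1.23 ± 0.22, adjusted p = 0.00035, edgeR). The order of the paired core proteins was thus reversed. UQCRC1 was above UQCRC2 in CPM per kb in SW480 (42.2 against 9.85) and below it in PEO4 control (15.2 against 22.9).

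In complex IV, 4 subunits were higher in PEO4 and 2 were lower. COX6C was at 52.4, 49.5 and 54.5 CPM in PEO4 control and between 7.59 and 15.8 CPM in the SW libraries (log2 fold change 2.03 ± 0.19). COX6A1 was higher by 0.83. COX6B2 was lower (-2.73 ± 0.45), with SW480 as the line that expressed it. NDUFA4 was lower as well (-0.82 ± 0.30, adjusted p = 0.0345, edgeR), a call lost, among other alternatives, against SW620 alone (log2 fold change -0.64, adjusted p = 0.130) and with limma-voom (-0.72, 0.0627). In complex V, 5 subunits were higher and 0 lower by edgeR, as by DESeq2, and 0 were lower at an unadjusted p under 0.05 or by limma-voom. The scaling changed this, with 6 higher and 2 lower under upper quartile factors, and 4 and 6 under library totals. ATP5ME, a membrane subunit, was at 50.9, 66.4 and 51.9 CPM in PEO4 control and between 8.34 and 18.7 CPM in the SW libraries (2.22 ± 0.25). MYL5 lies on the opposite strand of 61.6% of its exon bases and was at 54.8 CPM in PEO4 control and 8.80 CPM in SW480, so the reads of the pair may not be told apart. ATP5MD (1.46) and the α subunit of the catalytic head, ATP5F1A, (1.21) were also higher, while ATP5F1B did not pass (-0.02 ± 0.27).

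Of the 5 subunits with the highest fold changes in this comparison, 4 share a chromosome arm, a pattern noticed after the values were seen. UQCRB, COX6C, NDUFB9 and CYC1 lie in that order on the long arm of chromosome 8, while the other, ATP5ME, is on chromosome 4. Their median log2 fold change was 1.93. The 328 genes tested from UQCRB to the end of the chromosome had a median of 1.80, and 76.5% of them were higher in PEO4, against a median of 0.41 for the 476 genes before UQCRB. The 75 subunits on other chromosomes had a median of 0.09, with 26.7% higher and 6.67% lower. Near NDUFB9, RNF139 had a log2 fold change of 2.59, TMEM65 2.01, TRMT12 2.01 and TATDN1 1.70 in the same comparison, while MTSS1 had -0.46. TATDN1, which overlaps NDUFB9 on the opposite strand, was at 36.9 CPM in PEO4 control, 9.09 in SW480 and 14.4 in SW620. The part of that overlap in the NDUFB9 difference was not tested. With TGF-β, none of these neighbours passed the threshold in edgeR, where their log2 fold changes lay between -0.24 and 0.20. ATP5F1A lies on chromosome 18, where all genes tested had a median of 0.79.

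**Figure D5:**
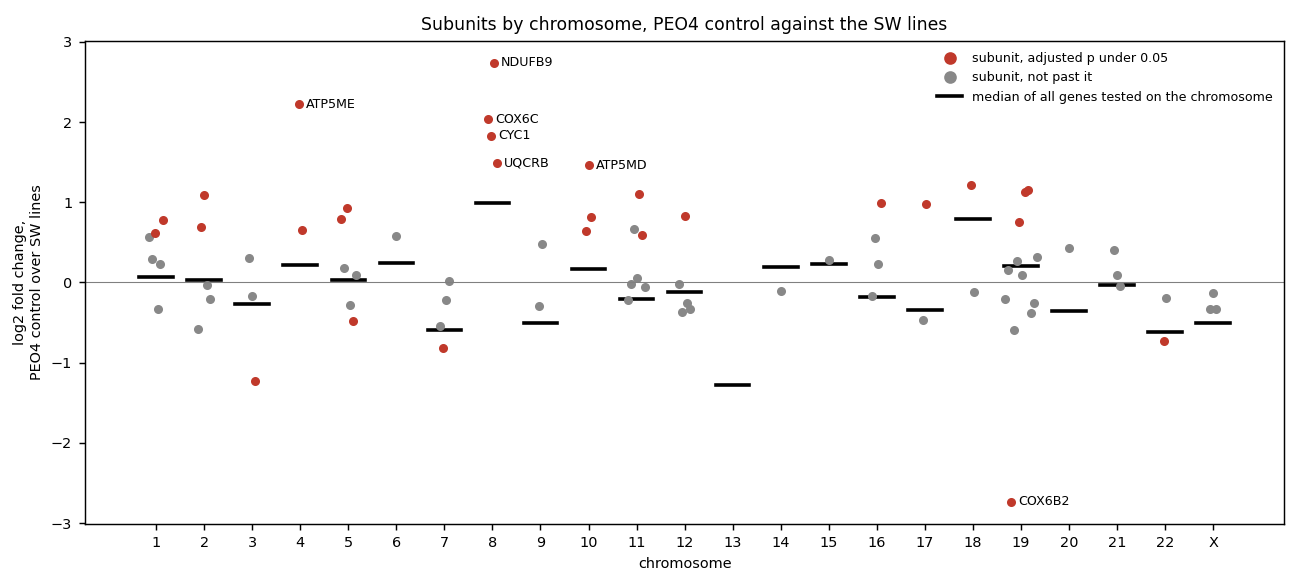
Log2 fold change of PEO4 control over the mean of the SW lines for each of the 79 subunits tested, by chromosome; red marks an adjusted p under 0.05 and black bars give the median of all genes tested on the chromosome. The 4 subunits on chromosome 8 sit between 1.49 and 2.74, above the chromosome's median of 0.99.

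Genes that work with the subunits were read from lists grouped by function. Their counts stand beside 30.5% of all genes called in SW620 (13.5% higher, 17% lower), 2.26% with TGF-β and 58% in PEO4 control (28.9% higher, 29.1% lower). With library totals, 13806 of all genes passed in PEO4 control, and the median log2 fold change of all genes was -0.36. Their split into higher and lower was not computed, so the list counts under that scaling have no such share beside them. The 13 subunits encoded by mitochondrial DNA gave 0 calls in SW620 against SW480 and 0 with TGF-β by edgeR, DESeq2 and limma-voom, and 0 had an unadjusted p under 0.05 in either. Their median log2 fold change in SW620 was -0.32. In PEO4 control 5 of them were higher, MT-CO1 (0.69) and MT-ND4 (0.66) among them, but 0 were higher and 1 lower with library totals. Of 56 assembly factors, which build the complexes, 7 were higher and 1 lower in SW620. The copper-related factors CMC2 (1.37), COA4 (0.90) and COA7 (0.80) were among the higher, and ACAD9, a complex I assembly factor, was lower (-0.52), a call lost in 5 of 6 fits with 1 library left out (adjusted p up to 0.137, edgeR). In PEO4 control 13 were higher and 15 lower (7 and 23 with library totals), CMC2 lowest at -2.03.

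Of 17 regulators of mitochondrial gene expression, 7 were higher and 1 lower in SW620. TFAM, which packages and transcribes mitochondrial DNA, rose from 45.7 to 112 CPM (log2 fold change 1.31, adjusted p = 0.00486, edgeR). TFB1M (1.04) and MYC (0.86, adjusted p = 0.0439, edgeR) rose too, the MYC call being lost in 5 of 6 fits with 1 library left out (adjusted p up to 0.144). The coactivator PPARGC1A fell by 1.86, from 2.41 to 0.646 CPM. In PEO4 control 5 regulators were higher and 4 lower (2 and 9 with library totals), PPARGC1A being at 2.73 and TFB1M at -1.71. Of 7 related subunits and partners outside the rule, NDUFA4L2, a paralogue of NDUFA4, rose in SW620 (0.84). All 7 passed the threshold between PEO4 control and the SW lines, 3 higher, such as HIGD2A (1.09), and 4 lower, such as cytochrome c (CYCS, -1.38) and the ATP synthase inhibitor ATP5IF1 (-1.06). HIGD1A, among the higher (adjusted p = 0.0494, edgeR), lost its call in 8 of 9 fits with 1 library left out, and 2 of the 7 were higher with library totals. Of 18 genes of the TCA cycle and pyruvate dehydrogenase, 1 was higher (PDHX, 0.64) and 1 lower (OGDH, -0.90) in SW620, and 2 were higher and 5 lower in PEO4 control (1 and 12 with library totals).

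Of 79 cytoplasmic ribosomal protein genes tested, 21 were higher and 0 lower in SW620 by edgeR, with a median of 0.64. DESeq2 gave 26 and 0, limma-voom 21 and 0, library totals 42 and 0, upper quartile factors 35 and 0, and 0 were lower at an unadjusted p under 0.05. Of 77 mitochondrial ones 9 were higher and 5 lower. In PEO4 control 18 cytoplasmic genes were higher and 15 lower (13 and 30 with library totals), and 21 mitochondrial ones were higher and 13 lower (16 and 24). With TGF-β, edgeR called 1 of 76 mitochondrial ribosomal proteins tested (MRPL52, 0.57) and 0 of the genes in the other 6 lists. Of those, 14 were higher and 6 lower at an unadjusted p under 0.05, and DESeq2 called 1 and limma-voom 0. The medians of the ribosomal lists with TGF-β were 0.06 for mitochondrial and 0.11 for cytoplasmic genes, beside 0.10 for the subunits.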

How the data were processed

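RNA from 12 libraries (total RNA, depleted of ribosomal RNA and treated with DNase, per the labels' protocols) was sequenced on an Illumina instrument. Per the submitters' processing notes, the authors used Trimmomatic 0.36, STAR 2.5.2b, featureCounts of Subread 1.5.2, DESeq2 and GRCh38. The annotation, the strand setting and the handling of multiply mapped reads are not given in the sources used here. The authors deposited whole-number counts per gene. Their deposited tables of comparisons give log2 fold changes, p-values and adjusted p-values, per the file headers, and were used only where named.

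Counts of all genes were fitted with edgeR 4.0.16 (R 4.3.3; glmQLFit and glmQLFTest, two-sided), after filterByExpr and TMM scaling, with Benjamini-Hochberg adjustment over all genes tested and a threshold of 0.05. Each of the 2 comparisons of the study used its own 6 libraries, and PEO4 control against the SW lines used 9. COX4I2 and COX6A2 were too low to test, and 79 of 81 subunits were tested in each comparison. Standard errors come from the fit, and 95% intervals from its t distribution. With 3 libraries a side, the smallest two-sided p of an exact permutation is 0.1. The labels call the replicates biological and do not say how cultures were separated, so p-values measure the spread between these samples. Exon lengths, overlaps and pseudogenes came from GENCODE 29 (GRCh38), which held all 81 subunits and may differ from the annotation used for counting. Of the subunits, 46 overlap exons of another gene and 46 have named pseudogenes.

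The rule for the subunits uses symbols and no measured value, but the subunits and lists were chosen with earlier results of these data known. The text names, per comparison, the called subunits (at most 10 per direction), the isoform pairs, the highest and lowest subunit per complex, and up to 3 genes per list and direction. Depth was 14531420 to 22028956 counts per library. Alternatives were DESeq2 1.42.0, limma-voom (limma 3.58.1), RLE, upper quartile and library-total scaling, no count filter, removal of mitochondrial-DNA genes, GC correction (loess span 0.3), the replicate block, all 12 libraries in 1 model, each SW line alone, and leaving out each library. Levels per kb of the longest transcript, and sums without NDUFB9 or CYC1, were added after seeing the data.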

Additional observations from a re-analysis of the deposited data

How the results depend on the processing

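For SW620 against SW480, the 5 calls among the subunits became 3 with the GC correction, 8 without mitochondrial-DNA genes, 9 with no count filter, 10 with upper quartile factors, 11 with library totals and 11 with all 12 libraries in 1 model. Calls among all genes in these fits ran from 6097 to 8418. Leaving out 1 library gave 1 to 14, beside 4253 to 7419 of all genes. DESeq2 and limma-voom each called 7 (1 higher, 6 lower). With the replicate block (the labels' replicate number) there were 27 (10 higher, 17 lower), and 37 with the block and the GC correction. The labels do not say whether the numbers pair the samples, and the main fits did not use them. Deviations of same-numbered libraries correlated at 0.016, 0.67 and 0.57 in the SW lines and at 0.29, -0.14 and 0.48 in PEO4, and not every library correlated best with its own number. Replicates 2 and 3 of the SW lines did, and across these numbers the correlations were -0.63 and -0.58. The fit on group alone leaves that shared deviation in the spread. Among all genes the block raised the calls from 6385 to 10667 in the SW lines and from 431 to 2102 in PEO4. For TGF-β, the 1 call became 2 with the block, 2 with the block and the GC correction, and 0 with all 12 libraries in 1 model (8 subunits had an unadjusted p under 0.05 in the fit of 6, and DESeq2 and limma-voom each called 1). Leaving out 1 library gave 0 to 1, beside 72 to 1080 of all genes. For PEO4 control against the SW lines, the 29 calls ranged from 21 to 38 with 1 library left out, beside 11474 to 14954 of all genes. They reached 42 with library totals, beside 13806. No paired fit of that comparison was run. With CPM on library totals, summed levels were 4167 in place of 4539 in PEO4 control and 4395 in place of 4964 with TGF-β. No called subunit changed sign in the fits run (5, 1 and 29 subunits over 17, 17 and 19 alternatives). The subunits' median log2 fold change did, to -0.10 in SW620 without SW480 replicate 2, to -0.21 without SW620 replicate 3, and to -0.10 in PEO4 control with library totals. The cause of these changes was not tested. Depth limits COX4I2, COX6A2, COX6B2, COX7A1 and NDUFB8, which rest on few counts.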
